A study of Mus musculus with 6 samples.

Results

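The myeloid C-type lectin receptors described here are Mgl2, Clec10a, Cd209a, Cd209d, Cd209e, Cd209f, Clec4e, Clec4d and Clec4n, taken by gene symbol from a list of 10. They are 9 of the 31053 genes in the count tables, and Clec7a was not analysed here. The list was chosen by their levels in the gated myeloid cells of these same libraries, with the contrasts between the groups in view, so the receptors' own values are a description and carry no p-value. Dorsal skin of 8- to 10-week-old female C57BL/6 mice was profiled by single-cell RNA sequencing in 6 libraries, 2 per group, each of which pooled several mice. The Sham group had no treatment. In the IMQ group, 62.5 mg of cream with 5% imiquimod (IMQ) was spread on the shaved back on each of 4 days, a standard way to bring about psoriasis-like inflammation. In the IMQ+SHP099 group, SHP099, which inhibits the phosphatase SHP2 allosterically, was given at 10 mg/kg a day over 4 days besides the cream. The cream base and imiquimod cannot be told apart in this design, since Sham skin had neither.

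C-type lectin receptors bind sugars or lipids on microbes, dying cells and self proteins. Mgl2 and Clec10a encode the mouse macrophage galactose-type lectins, which take up galactose- and N-acetylgalactosamine-bearing ligands and are commonly used to mark dermal dendritic cells and macrophages. The CD209 genes are the mouse relatives of human DC-SIGN, which bind mannose- and fucose-rich glycans. Clec4e (Mincle), Clec4d (MCL) and Clec4n (Dectin-2) encode receptors that recognise mycobacterial and fungal glycolipids or mannans, and signal through the Fc receptor gamma chain, Syk and Card9 towards NF-kB.

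The 9 genes lie in 3 groups of neighbours in the GRCm38 annotation (GENCODE M21), and all are protein-coding. Mgl2 (chromosome 11, 70130329 to 70137550, plus strand) and Clec10a (chromosome 11, 70156197 to 70170834, plus strand) stand side by side. Cd209a (chromosome 8, 3743397 to 3748984, minus strand), Cd209e (chromosome 8, 3847965 to 3854309, minus strand), Cd209d (chromosome 8, 3871824 to 3878555, minus strand) and Cd209f (chromosome 8, 4102787 to 4105835, minus strand) share one stretch of chromosome 8. Clec4n (chromosome 6, 123229843 to 123247021, plus strand), Clec4d (chromosome 6, 123262111 to 123275265, plus strand) and Clec4e (chromosome 6, 123281789 to 123289870, minus strand) are the myeloid lectin genes of chromosome 6. Mgl2 and Clec10a shared 109 exact 91-base words in the last 1000 bases of their transcripts, and 25.3% of such words of Cd209f also occurred in Cd209g. Reads from these stretches could not be assigned to 1 gene, so the levels of Cd209f and, to a smaller degree, of Mgl2 and Clec10a are uncertain. The other 6 receptors shared no such word with another gene.

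The 220 bases before the start of 4 of these genes are shown, since Mgl2 and Cd209a stand for the receptors that were high in Sham skin and Clec4e and Clec4d for those that were high in IMQ skin. The sequences are from RefSeq (GRCm38.p6), read 5′ to 3′ on the gene's strand, and end just before the earlier of the RefSeq and GENCODE starts. Capitals mark matches, on either strand, to GAGGAA (the PU.1 core), GGAA and GAAA with any 2 bases between them (an ETS-IRF composite element), TTGCNNAA (C/EBP), GGGA and TTCC with any 2 bases between them (NF-kB), TGANTCA (AP-1) or TATAAA (the TATA box).
Mgl2 (chr11:70130109-70130328, plus strand): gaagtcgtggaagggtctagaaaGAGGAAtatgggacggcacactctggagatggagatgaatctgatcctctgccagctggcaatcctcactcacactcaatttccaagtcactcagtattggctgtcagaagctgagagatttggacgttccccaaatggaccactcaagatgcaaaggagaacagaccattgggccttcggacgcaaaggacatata
Cd209a (chr8:3748985-3749204, minus strand): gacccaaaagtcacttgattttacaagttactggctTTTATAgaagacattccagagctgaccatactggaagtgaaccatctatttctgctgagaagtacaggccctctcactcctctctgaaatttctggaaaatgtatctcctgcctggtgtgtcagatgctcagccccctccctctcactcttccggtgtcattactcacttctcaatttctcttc
Clec4e (chr6:123289872-123290091, minus strand): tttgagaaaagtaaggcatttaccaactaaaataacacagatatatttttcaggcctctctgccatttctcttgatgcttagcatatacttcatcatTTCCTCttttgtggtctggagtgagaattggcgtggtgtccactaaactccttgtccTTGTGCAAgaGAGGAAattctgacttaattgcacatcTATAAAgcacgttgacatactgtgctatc
Clec4d (chr6:123261887-123262106, plus strand): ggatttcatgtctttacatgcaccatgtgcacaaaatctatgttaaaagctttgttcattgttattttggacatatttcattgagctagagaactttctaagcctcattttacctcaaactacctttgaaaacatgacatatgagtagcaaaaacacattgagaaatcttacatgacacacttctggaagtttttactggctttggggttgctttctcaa
The Mgl2 window held 1 GAGGAA, and the Clec4e window held 2, on opposite strands. Over 27025 RefSeq promoters, 20.7% of windows of this length held it. The Clec4e window also held 1 TTGCNNAA, which no GAGGAA match overlaps, against 8.28% of all promoters. A TATAAA lay 29 to 24 bases before the Clec4e start, and 1 lay in the Cd209a window on the opposite strand, 184 to 179 bases before the start, against 11.5% of all promoters. The Clec4d window held none of the 6 motifs. Matches to the other 3 motifs, found in 1.07% (NF-kB), 2.08% (ETS-IRF) and 6.05% (AP-1) of promoters, were absent from all 4 windows. A match describes the letters only.

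Cells were gated on marker genes, none of which is one of the 9 receptors, and named "-like" for that reason. Of 50850 cells kept, 3864 were myeloid, 371 and 1006 in Sham, 802 and 954 under IMQ and 253 and 478 in IMQ+SHP099 (replicates 1 and 2, the order used throughout, where IMQ alone is the IMQ group and SHP099 the IMQ+SHP099 group). Cd74-high dendritic-like cells numbered 56 and 296 cells in Sham, 37 and 34 under IMQ alone, and 10 and 22 with SHP099. C1q macrophage-like cells numbered 40 and 317 cells in Sham, 61 and 56 under IMQ alone, and 30 and 31 with SHP099. Chil3/Vcan monocyte-like cells numbered 1 and 19 cells in Sham, 331 and 337 under IMQ alone, and 17 and 228 with SHP099. The neutrophil-like cells numbered 5 and 10 cells in Sham, 153 and 322 under IMQ alone, and 8 and 89 with SHP099. Another 540 myeloid cells were assigned to no subset, and 384 (9.94%) lay within 0.1 of the score margin that sets the gates. Sham replicate 1 and IMQ+SHP099 replicate 1 stood apart, with 52.6% and 47% of their myeloid cells in the Langerhans gate, against 2.88 to 7.73% in the other 4 libraries. With fewer than 2 Sham libraries of at least 10 monocyte-like cells, no test of IMQ against Sham was possible there, and none was possible in neutrophil-like cells. The median depth of kept cells was 5645 to 18263.5 UMIs per library, where a UMI tags a single captured molecule. Levels are given as CPM, the UMIs of a gene per 1000000 UMIs of the same cells in that library, and the intervals cover counting error only. Any pair of libraries shared 12 to 30 cell barcodes.

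Across all myeloid cells, before any division into subsets, Mgl2, Cd209a, Cd209d and Cd209e were high in the Sham libraries, and Clec4e and Clec4d were higher in all 4 libraries of treated skin. Mgl2 stood at 288 and 934 CPM in Sham, 2.7 and 6.68 under IMQ alone, and 8.06 and 7.86 with SHP099. Cd209a stood at 95.5 and 523 CPM in Sham, 3.9 and 1.99 under IMQ alone, and 3.55 and 1.12 with SHP099. Every treated library was far below both Sham libraries for both genes. Clec4e, the Mincle gene, stood at 10.7 and 30.7 CPM in Sham, 472 and 438 under IMQ alone, and 79.7 and 599.5 with SHP099. The lowest treated library for Clec4e, IMQ+SHP099 replicate 1, held 17 monocyte-like and 8 neutrophil-like cells. In these sums a change in the number of cells of a type and a change in UMIs per cell cannot be told apart.

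**Figure D1:**
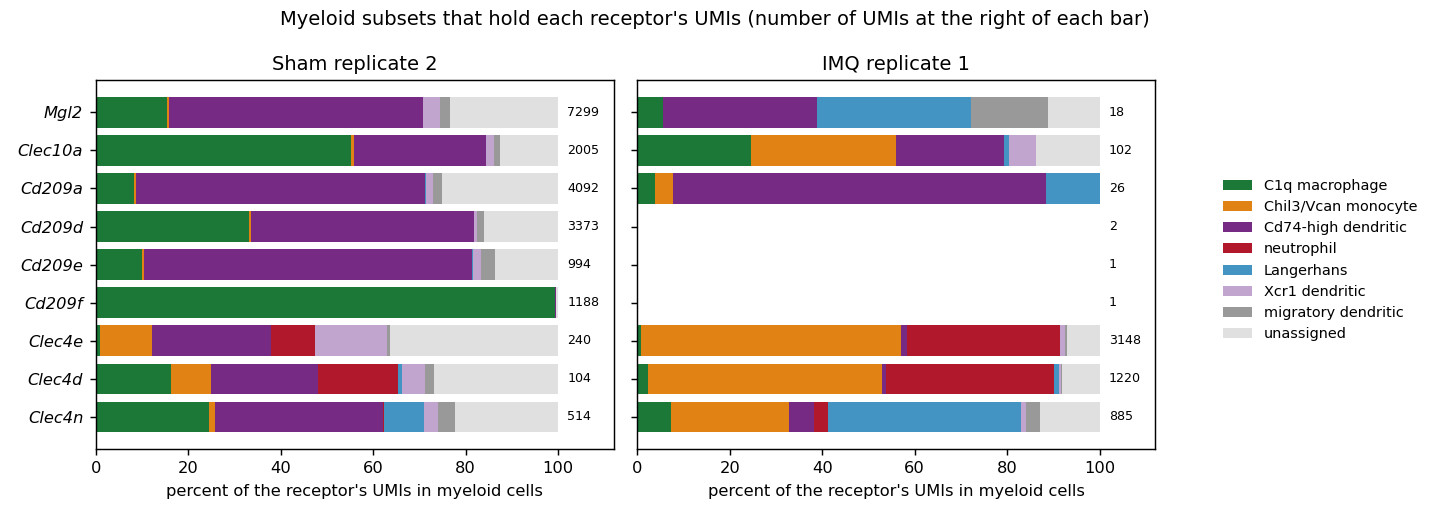
Horizontal bars give, for each receptor (rows), the percent of its UMIs in myeloid cells that fell in each gated subset, in Sham replicate 2 (left) and IMQ replicate 1 (right), with the number of UMIs at the end of the bar. Receptors with under 10 UMIs have no bar. Cd209f lay almost wholly in macrophage-like cells in Sham replicate 2, and Clec4e and Clec4d lay mostly in monocyte- and neutrophil-like cells in IMQ replicate 1.

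The receptors divided among the subsets in different ways. In the 2 Sham libraries, 51.3% and 55% of the myeloid UMIs of Mgl2 lay in dendritic-like cells, and 70.7% and 62.5% of those of Cd209a. Of the myeloid Cd209f UMIs, 94.4% and 99.2% lay in macrophage-like cells, on 18 and 1188 UMIs. Clec10a differed between the libraries, with 19% and 55.2% in macrophage-like and 57.7% and 28.4% in dendritic-like cells. Cd209d likewise had 4.78% and 33.2% of its myeloid UMIs in macrophage-like cells, and Cd209e 7.07% and 9.96%. In the 2 IMQ libraries, monocyte- and neutrophil-like cells together held most UMIs of Clec4e, 56.1% plus 33% in replicate 1 and 36.2% plus 57.5% in replicate 2. Langerhans-like cells held 41.7% and 41.3% of the Clec4n UMIs in the IMQ libraries. In the large classes outside the myeloid cells the share of cells with a UMI was low. No receptor was detected in more than 2.03% of keratinocytes (median depth 9804.5 to 35618 UMIs per library), 1.47% of fibroblasts (5447 to 9479.5 UMIs) or 1.83% of lymphocytes (1291 to 4106.5 UMIs) of any library. For Cd209f, which shares sequence with its neighbour Cd209g, the share of all its UMIs that lay in myeloid cells was 39.1% and 94.1% in Sham, 4.17% and 71.4% under IMQ alone, and 40.6% and 22.5% with SHP099. For Mgl2 it was 91.1% and 96.7% in Sham, 85.7% and 79.7% under IMQ alone, and 89.3% and 95.5% with SHP099, and for Clec10a, which mast cells also carried, 76.8% and 93.3% in Sham, 68.5% and 78.6% under IMQ alone, and 60% and 69.6% with SHP099.

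IMQ and Sham skin were compared to see how far these receptors differed within a gate after 4 days of the cream. In Cd74-high dendritic-like cells, the antigen-presenting gate set by Cd74, MHC class II genes, Flt3 and Zbtb46, 5 of the 7 receptors with a mean of at least 20 CPM were lower in both IMQ libraries than in either Sham library, and none was higher. Of all genes above that mean, 21.4% were lower and 19.7% higher without overlap. The receptors were chosen with this contrast in view, and Cd209e reached that mean through its Sham levels alone. Nothing is read from the count of receptors. Mgl2, the galactose-type lectin, stood at 1296 and 1496 CPM in Sham, 19.6 and 0 under IMQ alone, and 166 and 63 with SHP099. The Sham mean was 1396 ± 142 and the IMQ mean 9.82 ± 13.9 (SD, n = 2 each), a 142-fold difference. Both Sham libraries were far above all 4 treated libraries, and in IMQ replicate 2 no dendritic-like cell had a UMI of Mgl2 (0 of 34 cells, which allows a share of up to 8.82%).

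**Figure D2:**
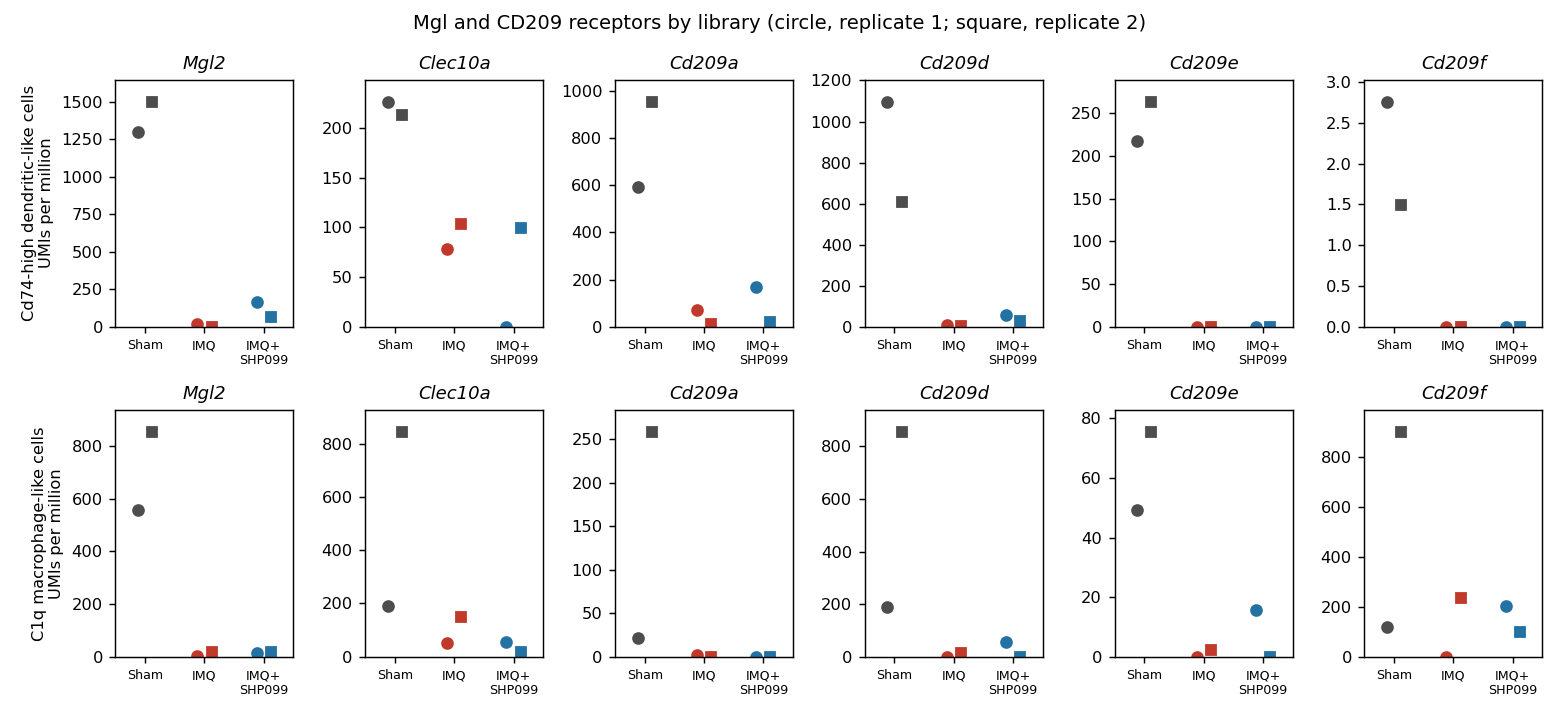
Each panel gives the CPM of 1 receptor in the dendritic-like (top) and macrophage-like (bottom) cells of each library, on a linear axis from 0 that differs between panels. In the top row the Sham points of all 6 receptors lie above the IMQ points, while in the bottom row Cd209f overlaps, with 235 in IMQ replicate 2 against 119.5 in Sham replicate 1.

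Cd209a, the gene often used to mark a dermal dendritic population, stood at 593 and 954 CPM in Sham, 68.7 and 9.01 under IMQ alone, and 166 and 18 with SHP099 in dendritic-like cells. The Sham mean was 19.9-fold the IMQ mean, and IMQ replicate 1 kept a level that IMQ replicate 2 did not. Cd209d stood at 1094 and 607 CPM in Sham, 6.54 and 4.5 under IMQ alone, and 55.3 and 27 with SHP099, and rested on 3 UMIs in the IMQ libraries together. The ratio of the summed levels of Sham over IMQ was 117 (95% counting interval 40.0 to 568). Cd209e stood at 218 and 263 CPM in Sham, 0 and 0 under IMQ alone, and 0 and 0 with SHP099, so it was seen in neither treated group and was at least 42.3-fold lower in IMQ, with the floor of 3 UMIs set over both IMQ libraries. Clec10a moved least of the 5, at 226 and 213 CPM in Sham, 78.5 and 104 under IMQ alone, and 0 and 99 with SHP099. Its Sham mean was 2.41-fold the IMQ mean. Cd209f was at or below 2.76 CPM in all dendritic-like sums.

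To compare shares of cells at 1 depth, every cell was thinned to 2000 UMIs and shallower cells were left out, which kept 41 and 265 cells in Sham, 33 and 30 under IMQ alone, and 9 and 18 with SHP099 in the dendritic gate. The share of cells with a Mgl2 UMI was then 65.9% and 82.3% in Sham, 3.03% and 0% under IMQ alone, and 22.2% and 0% with SHP099. Unthinned, the shares were 66.1% and 84.1% in Sham, 10.8% and 0% under IMQ alone, and 20% and 13.6% with SHP099. For Cd209a the thinned shares were 68.3% and 67.9% in Sham, 12.1% and 3.33% under IMQ alone, and 22.2% and 0% with SHP099. Most dendritic-like cells of Sham skin thus carried each of these transcripts at this depth, and few cells of treated skin did.

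**Figure D3:**
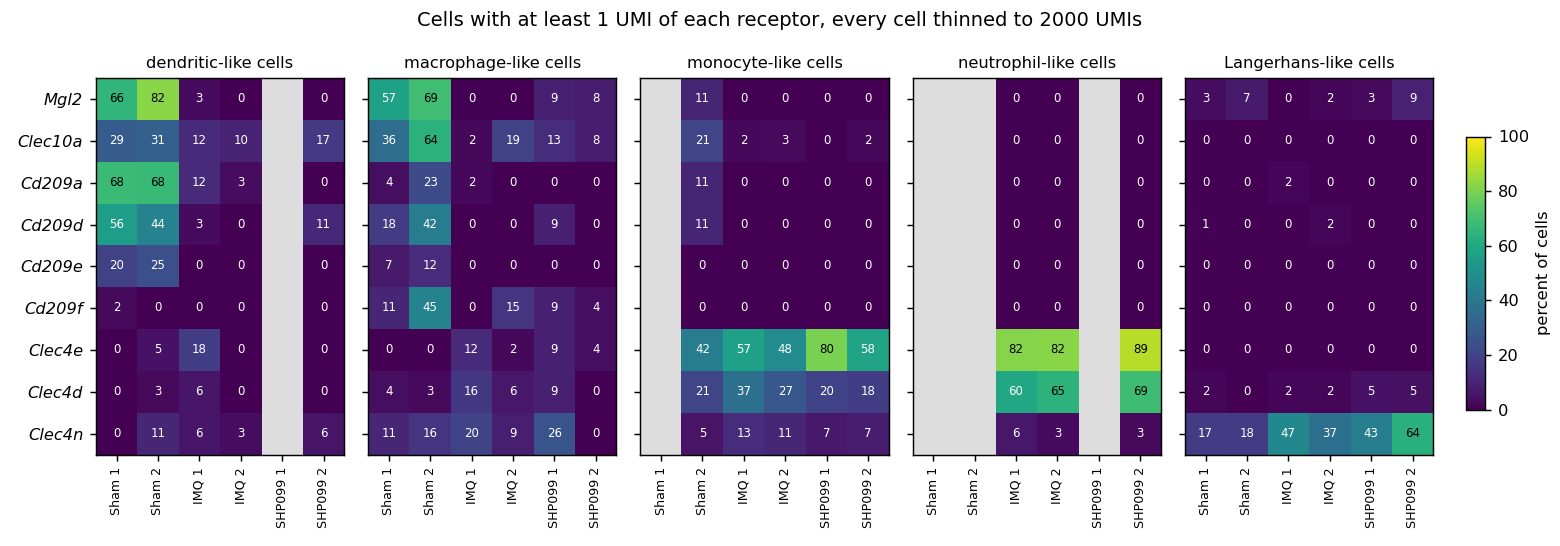
The heat map gives the percent of cells with at least 1 UMI of each receptor (rows) in each library (columns) and gate (panels), after every cell was thinned to 2000 UMIs. Grey columns had under 10 such cells. Mgl2, Cd209a and Cd209d are high in the Sham columns of the dendritic-like panel, Clec4e and Clec4d in the monocyte- and neutrophil-like panels, and Clec4n in the IMQ and IMQ+SHP099 columns of the Langerhans-like panel.

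The edgeR quasi-likelihood fit over all genes called 0.575% of 3824 genes, 0.209% lower and 0.366% higher in IMQ than in Sham dendritic-like cells (adjusted p under 0.05). With mice pooled, such p-values measure the spread between libraries. Of the 6 receptors that passed its filter on low counts, 3 were among the lower genes, Mgl2 at a log2 difference of -6.94 (SE 0.84), Cd209d at -7.19 (SE 0.67) and Cd209e at -10.27 (SE 1.00), where the value for Cd209e depends on the prior count. Without IMQ replicate 1 Cd209e was not called. The receptors were chosen with this contrast in view, so nothing is read from that count.

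Other features of the gate moved with these levels. The summed dendritic markers stood at 71063 and 60799 CPM in Sham, 40528 and 31914 under IMQ alone, and 53140.3 and 30346 with SHP099, with all 8 markers detected in every library. Keratinocyte markers stood at 3040.3 and 983 CPM in Sham, 154 and 117 under IMQ alone, and 314 and 54 with SHP099. B cell markers (Cd79a, Cd79b, Ms4a1 and Fcmr) were at 11 and 3.73 CPM in Sham, 301 and 505 under IMQ alone, and 36.9 and 81 with SHP099, and 29.7% and 35.3% of the IMQ cells held such a UMI against 3.57% and 3.38% of Sham cells. Without the cells that held a B cell UMI, Mgl2 was at 1328 and 1515 CPM in Sham, 22.1 and 0 under IMQ alone, and 237 and 67.3 with SHP099. Without cells rich in keratinocyte UMIs it was at 1352 and 1523 CPM in Sham, 19.6 and 0 under IMQ alone, and 166 and 63 with SHP099. Sham and IMQ did not overlap in either case. Irf8 stood at 2.76 and 19.4 CPM in Sham, 65.4 and 320 under IMQ alone, and 111 and 252 with SHP099. The monocyte gene Ly6c2 was found in 10.7% and 5.07% of Sham cells, 29.7% and 35.3% under IMQ alone, and 10% and 50% with SHP099. Mrc1 stood at 127 and 528 CPM in Sham, 36 and 0 under IMQ alone, and 92.2 and 45 with SHP099. The gate thus held cells of a different make-up in the groups. The part of this and of the lower dendritic marker level in these results was not tested.

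In C1q macrophage-like cells, the resident-type gate set by complement C1q, Pf4, Cd163 and Folr2, the same 5 receptors, of 8 with a mean of at least 20 CPM, were lower in both IMQ libraries, and Clec4d was higher. Of all genes above that mean, 20.1% were lower and 19.6% higher without overlap. Cd209a and Cd209e reached that mean through their Sham levels alone. Nothing is read from the count of receptors, which were chosen with this contrast in view. Mgl2 stood at 555 and 851 CPM in Sham, 1.99 and 17.9 under IMQ alone, and 15.5 and 18.9 with SHP099. Its Sham mean of 703 ± 209 was 70.7-fold the IMQ mean of 9.95 ± 11.3 (SD, n = 2 each). The groups did not overlap, and the treated libraries stayed close together. Cd209d stood at 189.8 and 853 CPM in Sham, 0 and 13.4 under IMQ alone, and 54.4 and 0 with SHP099, and the Sham libraries themselves differed more than the treated ones did. Cd209a stood at 21.1 and 258 CPM in Sham, 1.99 and 0 under IMQ alone, and 0 and 0 with SHP099, and the ratio of summed levels was 223 (39.8 to 8832), since IMQ held 1 UMI. That ratio leans on Sham replicate 2, as Sham replicate 1 held 3 UMIs of Cd209a. For Cd209e the levels were 49.2 and 75.3 CPM in Sham, 0 and 2.24 under IMQ alone, and 15.5 and 0 with SHP099, on 1 UMI in IMQ.

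Clec10a and Cd209f behaved otherwise in the macrophage gate. Clec10a stood at 189.8 and 842 CPM in Sham, 49.7 and 150.0 under IMQ alone, and 54.4 and 18.9 with SHP099, so that Sham replicate 1 and IMQ replicate 2 were 189.8 and 150.0. The groups did not overlap, but the gap between them was smaller than the gap between the 2 Sham libraries. Cd209f stood at 119.5 and 897 CPM in Sham, 0 and 235 under IMQ alone, and 202 and 101 with SHP099, and here the groups overlapped. The neighbouring gene Cd209g, with which Cd209f shares sequence, was likewise highest in Sham replicate 2 and undetected in IMQ replicate 1, at 35.1 and 587 CPM in Sham, 0 and 163 under IMQ alone, and 163 and 81.8 with SHP099. Thinned to 2000 UMIs, the share of macrophage-like cells with a Mgl2 UMI was 57.1% and 69.4% in Sham, 0% and 0% under IMQ alone, and 8.7% and 7.69% with SHP099. For Clec10a it was 35.7% and 64.2% in Sham, 2.04% and 19.1% under IMQ alone, and 13% and 7.69% with SHP099. Unthinned, Mgl2 was detected in 1 of 61 and 3 of 56 IMQ cells and Clec10a in 5 and 17.

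The fit called 0.755% of 4633 genes, 0.54% lower and 0.216% higher in IMQ than in Sham macrophage-like cells. Beside that stand 3 of the 8 receptors that passed the filter, all lower, namely Mgl2 at -6.17 (SE 0.66), Cd209d at -6.30 (SE 1.08) and Cd209e at -5.62 (SE 0.98) on the log2 scale. Clec10a and Cd209f had log2 differences of -2.39 (SE 0.66) and -2.14 (SE 1.18) and were not called. Without Sham replicate 2 only Mgl2 of the receptors was called, and without IMQ replicate 1 or 2 Cd209e was not called. As in the dendritic gate, the receptors were chosen with this contrast in view and nothing is read from the count. Clec4d stood at 7.03 and 12.9 CPM in Sham, 55.7 and 22.4 under IMQ alone, and 38.8 and 6.29 with SHP099, and the IMQ mean was 3.91-fold the Sham mean.

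The macrophage gate's own markers summed to 17426 and 16969.5 CPM in Sham, 15014 and 15836 under IMQ alone, and 18219.8 and 14757 with SHP099. Within that sum C1qa stood at 4267 and 4759 CPM in Sham, 4468 and 4650.4 under IMQ alone, and 5545 and 4680.0 with SHP099, while the chemokine gene Pf4 stood at 3269 and 2716 CPM in Sham, 853 and 819 under IMQ alone, and 1514 and 352 with SHP099. Folr2, a marker of resident macrophages, stood at 422 and 1051 CPM in Sham, 85.5 and 208 under IMQ alone, and 124 and 37.7 with SHP099. Both were lower in all treated libraries than in both Sham libraries, and their part in the receptor levels was not tested. The dendritic marker list, mostly MHC class II genes, stood at 29616 and 21181 CPM in Sham, 1905 and 5956 under IMQ alone, and 5522 and 3441 with SHP099 in the same cells. Keratinocyte markers were at 2271 and 1481 CPM in Sham, 157 and 67.2 under IMQ alone, and 582 and 88.1 with SHP099. The share of macrophage-like cells with a B cell UMI was 17.5% and 4.1% in Sham, 32.8% and 32.1% under IMQ alone, and 16.7% and 35.5% with SHP099. Without those cells Mgl2 stood at 646 and 819 CPM in Sham, 3.9 and 34.1 under IMQ alone, and 22 and 35.2 with SHP099, with both IMQ values higher than over all cells and no overlap with Sham. The part of the lower MHC class II level in the receptor levels was not tested.

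SHP099-treated and IMQ-only skin were compared to see whether receptor levels differed with the inhibitor. In dendritic-like cells Mgl2 and Cd209d were higher in both IMQ+SHP099 libraries than in both IMQ libraries, and far below Sham. By this measure 14.8% of genes with a mean of at least 20 CPM were higher and 18.6% lower, beside 2 of 6 receptors higher. Nothing is read from that count, as the receptors were chosen with the contrasts in view. The Mgl2 mean was 114 ± 72.9 CPM in IMQ+SHP099 against 9.82 ± 13.9 in IMQ (SD, n = 2 each), on 16 and 6 UMIs. For Cd209d, with 6 and 3 UMIs, the ratio of summed levels was 6.38 (95% counting interval 1.36 to 39.4). Those UMIs lay in 1 and 3 cells with SHP099 and in 1 cell of each IMQ library. The interval treats UMIs as independent and does not measure the spread between cells or libraries. The inhibitor-treated gate held 10 and 22 cells, of which 2 and 3 had a Mgl2 UMI. After thinning, the Mgl2 shares overlapped, at 22.2% and 0% with SHP099 against 3.03% and 0% under IMQ alone. Those of Cd209d did not, at 11.1% and 11.1% with SHP099 against 3.03% and 0% under IMQ alone. Where cells were assigned by clusters in place of gates, Mgl2 stood at 20.8 and 109.6 under IMQ alone and 357 and 20.7 in IMQ+SHP099, and the groups overlapped.

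No gene was called between IMQ+SHP099 and IMQ in dendritic-like or macrophage-like cells (0.0% of 3824 and 0.0% of 4633 genes by edgeR). Without the filter on low counts edgeR called 54 genes in dendritic-like cells, Mgl2 among them as higher. It then called 57 in macrophage-like cells, with no receptor among them. At an unadjusted p under 0.05 there were 161 and 173 genes, and DESeq2 called 0 in both gates. In the macrophage gate all 5 receptors with a mean of at least 20 CPM overlapped between the groups, where 12.7% of such genes were higher and 23.1% lower without overlap. Clec10a had a log2 difference of -1.37 (SE 0.84) and Cd209f of 0.48 (SE 1.25). Both differences were within 2 standard errors.

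Clec4e and Clec4d, the Mincle and MCL genes, were found mostly in Chil3/Vcan monocyte-like cells and neutrophil-like cells. The monocyte gate is set by Chil3, Vcan, Ly6c2 and related genes. Clec4e stood at 257 CPM in Sham replicate 2, 698 and 444 under IMQ alone, and 1046 and 687 with SHP099. The 1 Sham library with enough cells was the lowest and an IMQ+SHP099 library of 17 cells the highest. At least 1 Clec4e UMI was found in 81.9% and 81.3% of IMQ cells, 94.1% and 88.2% of IMQ+SHP099 cells, and in Sham replicate 2 in 52.6% of 19 cells, exact 95% interval 28.9 to 75.6%. After thinning the shares were 57.4% and 48.3% under IMQ alone and 80% and 58.4% in IMQ+SHP099. Between these groups the UMI levels overlapped, with a log2 difference of 0.56 (SE 0.31).

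**Figure D4:**
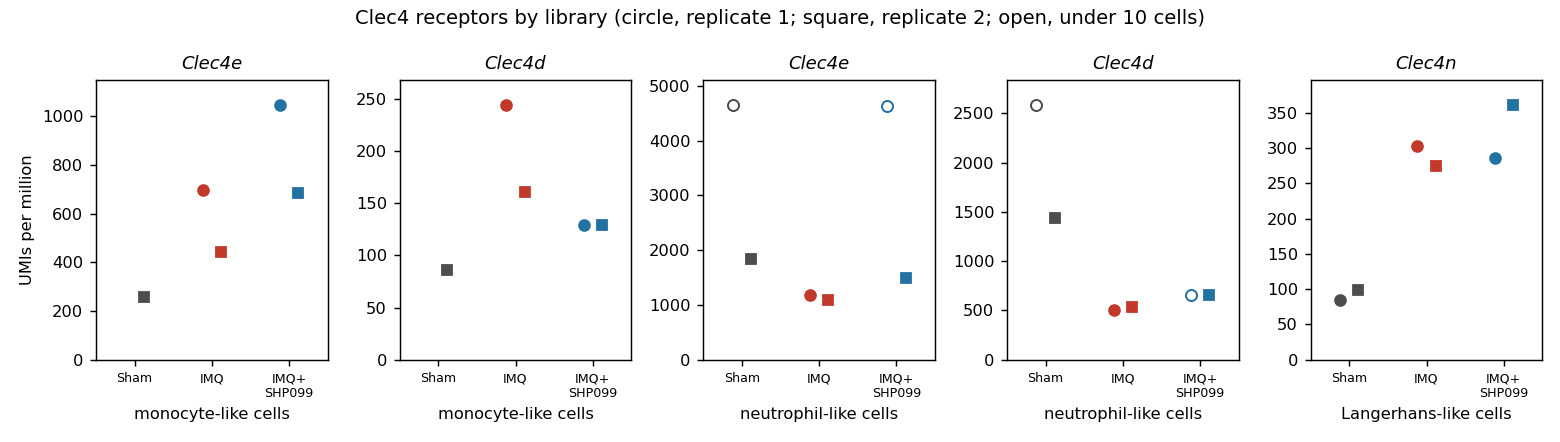
Each panel gives CPM of 1 receptor in 1 gate by library, on a linear axis from 0, with open symbols for libraries of under 10 cells. Sham replicate 1 held 1 monocyte-like cell and is left out there. Clec4d in monocyte-like cells lies lower in both IMQ+SHP099 libraries (129.6 and 129) than in IMQ (244 and 161), and Clec4n in Langerhans-like cells lies higher in all 4 treated libraries than in Sham.

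Clec4d stood at 85.7 CPM in monocyte-like cells of Sham replicate 2, 244 and 161 under IMQ alone, and 129.6 and 129 with SHP099. Clec4n stood at 89.3 and 52.9 under IMQ alone and 46.3 and 47.1 with SHP099. Both were lower in both IMQ+SHP099 libraries, with log2 differences of -0.63 (SE 0.31) and -0.55 (SE 0.35). In IMQ+SHP099 replicate 1 the levels rested on 14 UMIs of Clec4d and 5 of Clec4n in 17 cells. Of genes with a mean of at least 20 CPM, 25.4% were lower and 13.5% higher without overlap, beside 2 of 3 receptors lower. Nothing is read from that count, as the receptors were chosen with the contrasts in view. The fit called 0.0542% of 9218 genes, all lower, and no receptor. Without IMQ+SHP099 replicate 2 it called 335 genes, Clec4e among them as higher. Neutrophil markers in the monocyte gate stood at 124 CPM in Sham replicate 2, 4921 and 7157 under IMQ alone and 16428 and 6286 with SHP099. Their part in the Clec4e and Clec4d levels was not tested.

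The Mgl and CD209 receptors were all but missing from monocyte-like cells of treated skin. Mgl2 was detected in 0 of 331 cells, which allows a share of up to 0.906%, in IMQ replicate 1, and in none of the cells of the other 3 treated libraries. In Sham replicate 2 it stood at 276 CPM, with all 29 UMIs in 2 of the 19 cells. Those 19 Sham cells also had 15152 CPM of the dendritic markers, against 500 to 709 in the treated libraries. Clec10a was the exception, detected in 8.76% and 8.9% of IMQ monocyte-like cells at 12.6 and 11.9 CPM.

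In neutrophil-like cells, gated on S100a8, S100a9, Csf3r and Cxcr2, Clec4e stood at 4649.6 and 1834 CPM in Sham, 1184 and 1084 under IMQ alone, and 4628 and 1491 with SHP099. The 2 highest values came from libraries of 5 and 8 cells, in which 27 and 78 UMIs were counted. Clec4d stood at 2583 and 1435 CPM in Sham, 503 and 539 under IMQ alone, and 653 and 658 with SHP099, highest in the Sham libraries of 5 and 10 cells. At least 1 Clec4d UMI was found in 88.9% and 82.6% of IMQ neutrophil-like cells and 83.1% in IMQ+SHP099 replicate 2. In the Sham gate the summed neutrophil markers were 56311 and 59644 CPM against 222281 and 283652 in IMQ, at a median of 998 and 1242 UMIs per cell against 4490.0 and 4237. Mgl2 and the 4 CD209 genes had 0 UMIs in the neutrophil-like cells of all 6 libraries.

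Clec4e was also higher in IMQ than in Sham macrophage-like cells, at 7.03 and 1.52 CPM in Sham, 55.7 and 13.4 under IMQ alone, and 23.3 and 56.6 with SHP099. The Sham libraries held 3 UMIs together, and the ratio of the summed levels of IMQ over Sham was 17.4 (5.47 to 88.5). Its mean over the IMQ and Sham libraries was under 20 CPM, so no share of all genes stands beside it. The monocyte gene Chil3 stood at 0 and 0 CPM in Sham macrophage-like cells, 245 and 38.1 under IMQ alone, and 116 and 208 with SHP099. Its part in the Clec4e level was not tested. In dendritic-like cells Clec4e stood at 0 and 23.1 CPM in Sham, 144 and 9.01 under IMQ alone, and 18.4 and 36 with SHP099, with overlap between IMQ and Sham.

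Clec4n, the Dectin-2 gene, followed neither pattern. It overlapped between IMQ and Sham in macrophage-like cells, at 56.2 and 95.9 CPM in Sham, 127 and 80.6 under IMQ alone, and 194 and 6.29 with SHP099, and in dendritic-like cells, at 16.5 and 69.4 CPM in Sham, 160.3 and 9.01 under IMQ alone, and 406 and 18 with SHP099. In Langerhans-like cells, the epidermal antigen-presenting cells gated on Cd207, Epcam and Ltc4s, it stood at 84.3 and 98.4 CPM in Sham, 302 and 275 under IMQ alone, and 286 and 361 with SHP099. All 4 treated libraries were higher than both Sham libraries there, and the IMQ mean was 3.16-fold the Sham mean. The share of Langerhans-like cells with a Clec4n UMI was 40.5% and 41.4% in Sham, 88.7% and 92.3% under IMQ alone, and 89.1% and 87% with SHP099. After thinning it was 17.5% and 17.9% in Sham, 46.7% and 36.5% under IMQ alone, and 42.9% and 63.6% with SHP099. Of genes with a mean of at least 20 CPM, 21.4% were higher and 29.0% lower in IMQ without overlap, and Clec4n was the 1 receptor above that mean. Langerhans-like cells numbered 195 and 29 cells in Sham, 62 and 52 under IMQ alone, and 119 and 23 with SHP099, and Clec4n overlapped between IMQ+SHP099 and IMQ, where 12.9% of such genes were higher and 20.5% lower without overlap.

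Within the Sham gates the receptors were not carried by the same cells alike. In thinned macrophage-like cells of Sham replicate 2, Cd209f was detected in 63.8% of 149 Clec10a-positive cells and 10.8% of 83 Clec10a-negative cells. By Mgl2 there was no such gap, with Cd209f in 44.7% of Mgl2-positive and 45.1% of Mgl2-negative cells. Cd209f was thus detected mainly in Clec10a-positive macrophage-like cells and at like shares with and without Mgl2. In dendritic-like cells of the same library Cd209a was detected in 71.6% of 218 Mgl2-positive and 51.1% of 47 Mgl2-negative cells, and Cd209d in 49.1% and 21.3%. These cells come from 1 library, so the shares have no replicate.

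Levels were correlated over 17 sums of a library and a dendritic-, macrophage-, monocyte- or neutrophil-like gate with at least 20 cells, which share libraries and depth. Langerhans-like cells, which held 41.7% and 41.3% of the myeloid Clec4n UMIs under IMQ alone, were not among these sums. Over them, log2(CPM + 1) of Mgl2 and Cd209d had a Pearson r of 0.93, Cd209d and Cd209e 0.93, and Clec4e and Clec4d 0.90. Clec10a and Clec4e ran opposite, at -0.90. The r of Clec4n with another receptor was at most 0.31. Among 5125 genes, those most like Clec4e were Hp, Adgre5, Lcn2, Slfn2 and Trem1 (r of 0.92 to 0.94), and those most like Mgl2 were Krt77, Gfra2, Taok1, Jup and Gfpt1 (0.84 to 0.86). For Cd209a they were Sept3, Jup, Ctnna1, Etv3 and Klrb1b (0.82 to 0.88), and for Clec4n Vapb, Gdf15, Slc25a39, Tspan14 and Sirt2 (0.79 to 0.87). Krt77 and Jup are keratinocyte genes, and keratinocyte markers were higher in the Sham gates as given above.

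Other genes of the pathway were taken from lists that were written with earlier results of these data known. In dendritic-like cells, 2 of 10 tested genes of the list of other lectin receptors rose in IMQ and 0 fell, beside 0.366% of all genes called higher (list median log2 difference 0.46, against -0.04 over all genes tested). They were Cd72, a B cell and myeloid inhibitory receptor, at 3.1 (SE 0.46, edgeR adjusted p = 0.0227), and the activation marker Cd69, at 2.82 (SE 0.43, edgeR adjusted p = 0.0227) on the log2 scale. Cd72 stood at 41.3 and 26.5 CPM in Sham, 298 and 257 under IMQ alone, and 166 and 207 with SHP099. Cd69 stood at 19.3 and 24.2 CPM in Sham, 183 and 126 under IMQ alone, and 18.4 and 18 with SHP099. Both are also expressed by B cells, and without cells holding a B cell marker UMI both were still called higher (edgeR log2 differences of 3.16 and 2.54). Neither was called without Sham replicate 2 or without IMQ replicate 1. Cd69 was also not called with a stricter gate, and Cd72 not with clusters in place of gates.

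Of the cytokine and early-response genes taken as receptor output, edgeR called 0 of 11 tested in dendritic-like and 0 of 11 in macrophage-like cells. Of the dermal dendritic and macrophage genes, 1 of 9 fell in dendritic-like cells, beside 0.209% of all genes called lower (list median -4.21), the eosinophil-associated ribonuclease gene Ear2 at -7.09 (SE 0.95, edgeR adjusted p = 0.0166), from 135 and 440.1 CPM in Sham to 3.27 and 0 in IMQ. That fold rests on 1 UMI in IMQ. Ear2 was not called without IMQ replicate 1, and with clusters in place of gates its log2 difference was -2.95. In macrophage-like cells 0 of 11 genes of that list and 0 of 11 other lectin receptors were called. Other settings did call some genes of these lists between IMQ and Sham. DESeq2 called Folr2 lower (log2 difference -2.29) and Clec4a2 higher (1.58) in macrophage-like cells. In dendritic-like cells the stricter gate called Ccl4 higher (2.78) and Retnla (-9.34) and Cd163 (-8.63) lower. Irf4, the factor needed by Mgl2-bearing dermal dendritic cells, was not called (adjusted p = 0.0981 by edgeR) and is named outside the rule, after its values were seen. In IMQ dendritic-like cells it was called lower with the stricter gate (log2 difference -3.44), without cells holding B cell UMIs (-5.21) and without the filter on low counts (-4.27). Without Sham replicate 1 its log2 difference was -4.68. By DESeq2, with RLE factors, with the replicate block or with clusters in place of gates it was not called. Nor was it called without the highest doublet scores or without cells rich in keratinocyte UMIs. It stood at 55.1 and 159 CPM in Sham, 6.54 and 4.5 under IMQ alone, and 148 and 36 with SHP099. No gene of these lists was called between IMQ+SHP099 and IMQ in any of the 3 gates tested with the settings used here, while some were under other settings.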

How the data were processed

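Dorsal skin cells, unsorted, were profiled with 10x 3' libraries. The deposited values are raw UMI counts per gene and cell, made by the authors with Cell Ranger 3.1.0 against GRCm38 (mm10), and not normalized. Of 55201 barcodes, 50850 passed limits of 100000 UMIs, 6500 genes and a mitochondrial share of 10%, all exclusive. Cells took the class, then the myeloid subset, whose mean marker score led the next by at least 0.25 and, for myeloid cells, at least 3 myeloid markers detected. The receptors, gene lists and markers were chosen with earlier results of these data known. Doublets were not removed in the main analysis, since Scrublet called under 0.5% of cells in 3 libraries, and its scores were used by rank in an alternative. UMIs were summed per library and subset of at least 10 cells and tested with edgeR 4.0.16 (TMM, filterByExpr, quasi-likelihood, Benjamini-Hochberg adjustment over all genes tested, R 4.3.3), with 1 spread shared by all libraries. DESeq2 1.42.0, RLE factors, no filter, a replicate block, a stricter gate (0.5), Leiden clusters (scanpy 1.11.5) and left-out libraries were alternatives. The code was tested on simulated counts. All 9 receptors are named. From the other lists, genes with an adjusted p under 0.05 and no overlap between groups are named, at most 8 per list, and the 5 genes most correlated with Mgl2, Cd209a, Clec4e and Clec4n. Library totals were 53913865 to 188283327 UMIs. The authors' cell labels and a list of signalling genes are not reported here.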

Additional observations from a re-analysis of the deposited data

How the results depend on the processing

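The log2 differences between IMQ and Sham of Mgl2, Cd209d and Cd209e were followed in the macrophage and dendritic gates. They kept their sign in all 65 combinations of receptor, gate and alternative counted, which left out DESeq2 and the fit without the filter. The choice of these receptors by the same values largely fixes this result, which is no sign of stability. Of the counts of called genes, 28 were within 1.5 times the main count and 35 beyond it, and the cause was not tested. In the order macrophage IMQ against Sham (main count 35), macrophage IMQ+SHP099 against IMQ (0), monocyte IMQ+SHP099 against IMQ (5), dendritic IMQ against Sham (22) and dendritic IMQ+SHP099 against IMQ (0), dropping the filter on low counts gave 215, 57, 131, 242 and 54. DESeq2 gave 35, 0, 3, 49 and 0. The stricter gate gave 25, 1, 24 and 85, and could not be fitted in the last contrast, where a library kept 4 cells. Leiden clusters gave 19, 0, 2, 82 and 0, and leaving out the highest doublet scores 24, 0, 41, 17 and 0. Of the alternatives chosen after seeing the data, leaving out cells with B cell UMIs gave 19, 0, 0 and 134, with no fit in the last contrast, and leaving out cells rich in keratinocyte UMIs 10, 0, 63, 19 and 0. Without cells holding B cell UMIs, Cd209a was called lower and Clec4e higher in dendritic-like cells as well. In macrophage-like cells Cd209e was not called without cells holding B cell UMIs, without cells rich in keratinocyte UMIs, by DESeq2, or without IMQ replicate 1 or IMQ replicate 2, and it gave no value without Sham replicate 2. Cd209d was not called there by DESeq2 or without Sham replicate 2. In dendritic-like cells Cd209e was not called without IMQ replicate 1. RLE factors moved no count by over 1.5 times.

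Leaving out each library in turn gave 9 to 283 genes for macrophage IMQ against Sham (lowest without Sham replicate 2, highest without Sham replicate 1), 0 to 24 for macrophage IMQ+SHP099 against IMQ (24 without IMQ replicate 1, 1 without IMQ replicate 2), 36 to 335 for the monocyte contrast (56 and 36 without IMQ replicate 1 or 2, 249 and 335 without IMQ+SHP099 replicate 1 or 2), 7 to 45 for dendritic IMQ against Sham (7 without IMQ replicate 1, 44 without Sham replicate 1 and 45 without IMQ replicate 2) and 0 to 9 for dendritic IMQ+SHP099 against IMQ (9 without IMQ replicate 2 or IMQ+SHP099 replicate 2). The lone sample of a group is then assumed to vary like the others. The differences between replicates 2 and 1 correlated between groups at -0.09 to 0.21. With 2 libraries per group this cannot show whether the replicate numbers pair the libraries. With the replicate block the counts were 77, 9, 91, 17 and 0. With that block Clec10a was called lower in IMQ macrophage-like cells and Cd69 was not called in dendritic-like cells. Between IMQ+SHP099 and IMQ the block also called Cxcl3 higher in monocyte-like cells and Retnla lower in macrophage-like cells, both named after their values were seen. Without a filter both were called too, and Cxcl1 was called lower in monocyte-like cells with the stricter gate, without the highest doublet scores and without cells rich in keratinocyte UMIs. No test, and so no alternative, was possible for the neutrophil gate or for monocyte-like cells of IMQ against Sham. With 1 to 3 UMIs behind several IMQ values, the size of the folds of Cd209a, Cd209d and Cd209e is limited by depth.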

Other observations

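Beyond the gates of the report, migratory dendritic-like cells, so named for their markers Ccr7, Fscn1 and Ccl22, carried Mgl2 at 586 and 439 CPM in Sham, 18.5 and 0 under IMQ alone, and 12.6 and 32.8 with SHP099. They numbered 25 and 44 cells in Sham, 16 and 19 under IMQ alone, and 32 and 9 with SHP099, and both Sham libraries were above all treated libraries. In Xcr1 dendritic-like cells, the cross-presenting type, Mgl2 stood at 96.3 and 189 CPM in Sham, 0 and 0 under IMQ alone, and 0 and 0 with SHP099, over 6 and 108 cells in Sham, 29 and 35 under IMQ alone, and 2 and 9 with SHP099. Clec4n stood at 0 and 10.9 CPM in Sham, 32.6 and 56.7 under IMQ alone, and 139 and 262 with SHP099 in the same Xcr1 cells, higher in all treated libraries than in both Sham libraries. Mast cells, which are not in the myeloid gate, carried Clec10a at 180.4 and 355 CPM in Sham, 154 and 111 under IMQ alone, and 28.6 and 439.9 with SHP099. Both IMQ libraries were below both Sham libraries, and the IMQ+SHP099 libraries spanned the other groups. They numbered 25 and 47 cells in Sham, 61 and 38 under IMQ alone, and 15 and 12 with SHP099. In these mast cells Clec4n had 0 UMIs in all 6 libraries. These gates were not tested.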
